A study of Mus musculus with 2 samples.

Results

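Peaks of N6-methyladenosine (m6A) that lay in annotated pseudogenes and in no protein-coding or long non-coding RNA (lncRNA) gene are described here. A peak is a stretch of the genome in which fragments from the antibody library pile up above the local background. A peak was taken as a member when its summit, the base with the highest pileup, lay inside a RefSeq span of type pseudogene on an autosome and inside no span of a protein-coding or lncRNA gene. Of 37173 autosomal peaks (38366 on all chromosomes), 609 met this rule, and they lay in 514 pseudogenes. The study made 1 library from RNA precipitated with an anti-m6A antibody and 1 input library without antibody, both from whole uterus of wild-type C57BL/6 mice. For the antibody library, uterus of gestation days 4 and 8 was pooled in equal amounts. The label of the input says only whole uterus, so whether it came from the same pool is not given. By that label of the antibody library, both days, all cell types of the tissue and an unstated number of animals are mixed in 1 peak list. The names of the peaks carry the comparison name D8posIP-Neginput. How this name relates to the pool of 2 days is not stated, and it was not used. With 1 library for each, no difference could be tested, and all intervals below are 95% intervals. Those of single folds cover counting error of fragments only. Those of shares, medians and densities take peaks, genes or pairs as independent. Such members of 1 library are not replicates, so these intervals describe this peak list alone.

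m6A is written on RNA by a methyltransferase complex built around Mettl3 and Mettl14, most often at a GGAC core, and is read by proteins that act on splicing, translation and decay of the RNA. A processed pseudogene is a copy of a spliced mRNA that was inserted back into the genome, and an unprocessed one is a duplicated gene that lost its function. Genes with abundant mRNA, such as those of ribosomal proteins, have left many processed copies, which can closely resemble their parent in sequence. Fragments of a parent's mRNA can therefore map to a copy. No source used here says how fragments that match several places were placed, so RNA made from a pseudogene and RNA of its parent cannot be told apart in these peaks. Fewer cells of a type and less RNA per cell likewise cannot be told apart. Marker genes of the labelled tissue carried peaks (stroma 7 of 7, smooth muscle 5 of 5, epithelium 4 of 4, endothelium 4 of 4 and leukocytes 3 of 3), and 0 of 5 trophoblast and embryo markers did. Of all 20554 autosomal protein-coding genes 57.2% held a peak, so groups this small say little about the cells present.

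Sequence was at hand for small parts of 7 member peaks, where a RefSeq microRNA or the start of a RefSeq gene lies inside them, and 6 of these are shown. The first set shows the microRNAs, since here the copy of a gene carries an annotated small RNA. The hairpin of Mir682 (chr13:75645046-75645141, plus strand) lies whole inside the peak of Gm4149, and its capitals mark the mature microRNA. The mature forms of the 3 microRNAs follow, with the seed (bases 2 to 8) in capitals. Sequences are from RefSeq, build GRCm38.p6, 5′ to 3′.
Mir682 hairpin: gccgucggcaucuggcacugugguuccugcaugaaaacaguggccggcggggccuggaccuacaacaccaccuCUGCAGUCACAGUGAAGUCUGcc
miR-682: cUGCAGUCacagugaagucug
miR-692: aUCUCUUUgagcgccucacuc
miR-8099: cCAAGGCGugggaaagguugu

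The 3 seeds all differ, so the microRNAs form no shared seed group. In all 3 member peaks the summit, where the fold is taken, lay outside the annotated microRNA, so the folds are not those at the microRNA. The Gm4149 peak (chr13:75644773-75645203) had 72 antibody fragments at its summit over a background of 2.47, a 21.0-fold enrichment (16.5 to 26.4). The peak around miR-692 lay in Ftl1-ps1, a copy of the ferritin light chain gene, at 5.46-fold (4.09 to 7.15). The mature sequence of miR-692 is the same at 3 places: the copy in Ftl1-ps1 on chromosome 13, Mir692-2 on chromosome 4 and Mir692-1 on chromosome 17. All 3 places lay in a peak, at 5.46-fold, 10.6-fold in a protein-coding span and 6.84-fold in no gene span. The peak around Mir8099-2, in Gm9726 on chromosome 12, reached 4.95-fold (2.36 to 9.53), while the second copy of this microRNA, on chromosome 3, lay in no peak. Whether the microRNAs themselves or longer RNAs gave these fragments was not tested.

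The second set shows the 3 windows around an annotated gene start that contain the summit of a member peak. Capitals mark 3 motifs, searched on both strands. The motif GGACA is printed as TGTCC where it lies on the other strand. The motif GGACC is printed as GGTCC there. The motif GGACT is printed as AGTCC there. The Gm13165 window (chr4:146240031-146240253, minus strand) is the part inside the Gm13169 peak, the Gm38924 window (chr11:83254215-83254514, minus strand) lies in the Gm11427 peak, and the Trim7 window (chr11:48825888-48826187, plus strand) lies in the Gm12184 peak. Trim7 encodes an E3 ubiquitin ligase.
Gm13165 window: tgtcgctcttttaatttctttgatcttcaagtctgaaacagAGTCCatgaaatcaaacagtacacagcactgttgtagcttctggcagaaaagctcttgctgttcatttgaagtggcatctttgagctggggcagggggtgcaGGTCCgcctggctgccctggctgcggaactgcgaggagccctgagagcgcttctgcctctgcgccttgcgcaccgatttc
Gm38924 window: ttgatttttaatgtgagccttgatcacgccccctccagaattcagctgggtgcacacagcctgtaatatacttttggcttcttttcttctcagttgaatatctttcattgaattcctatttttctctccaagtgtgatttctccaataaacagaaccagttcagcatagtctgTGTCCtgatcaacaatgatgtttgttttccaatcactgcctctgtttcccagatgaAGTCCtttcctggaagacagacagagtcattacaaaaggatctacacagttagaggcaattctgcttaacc
Trim7 window: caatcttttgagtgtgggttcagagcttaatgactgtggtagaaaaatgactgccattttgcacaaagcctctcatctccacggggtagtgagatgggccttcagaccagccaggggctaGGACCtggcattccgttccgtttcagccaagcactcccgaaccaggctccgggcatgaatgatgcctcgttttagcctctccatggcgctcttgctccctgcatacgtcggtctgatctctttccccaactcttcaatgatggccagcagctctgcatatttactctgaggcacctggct

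Each of the 3 windows holds at least 1 motif, and so do 83.9% of 32851 RefSeq windows of 300 bases, so a match is common in windows of this kind. The Mir682 hairpin has 1 GGACC on its own strand, beginning at base 56 counted from its 5′ end, and 22.0% of 1005 RefSeq hairpins hold a motif on their own strand (37.9% on either). The peak in Gm13169 was 10.9-fold (6.43 to 17.6), that in Gm11427 5.74-fold (3.82 to 8.31) and that in Gm12184 5.12-fold (3.93 to 6.55). Gm13165 and Gm38924 are lncRNA genes, and all 3 summits lie in front of the annotated start, outside the span of the gene. That of Gm12184 lies 231 bases from the span of Trim7.

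The fold used throughout is the authors' value at the summit, (antibody fragments + 1)/(background + 1), where the background is the scaled local level that the peak caller used. Pseudogene peaks had a median fold of 6.84 (6.36 to 7.16), with quartiles at 5.18 and 9.67 and extremes of 1.69 and 36.8. They had a median of 23 antibody fragments at the summit, over a median background of 1.48. Across all autosomal peaks the medians were a fold of 6.15, 29 fragments and a background of 3.41. So the pseudogene peaks were built on fewer fragments, over a lower background, with a fold somewhat above that of the list. A fold of 10 or more was reached by 146 of 609 (24.0%, 20.6 to 27.6), beside 14.8% of all autosomal peaks. The share was 14.7% in protein-coding spans (32062 peaks, median 6.10-fold), 14.6% in lncRNA spans outside them (1197 peaks, 6.16-fold) and 13.4% outside all genes (3128 peaks, 6.16-fold). Of 122 peaks in spans that RefSeq calls transcribed pseudogenes, which the rule leaves out, 18.9% (12.3 to 26.9) were at 10-fold or more. Their median was 6.27 (5.83 to 7.16). Both intervals hold the values of the pseudogene peaks and those of all autosomal peaks, so this class is not set apart from either.

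**Figure D1:**
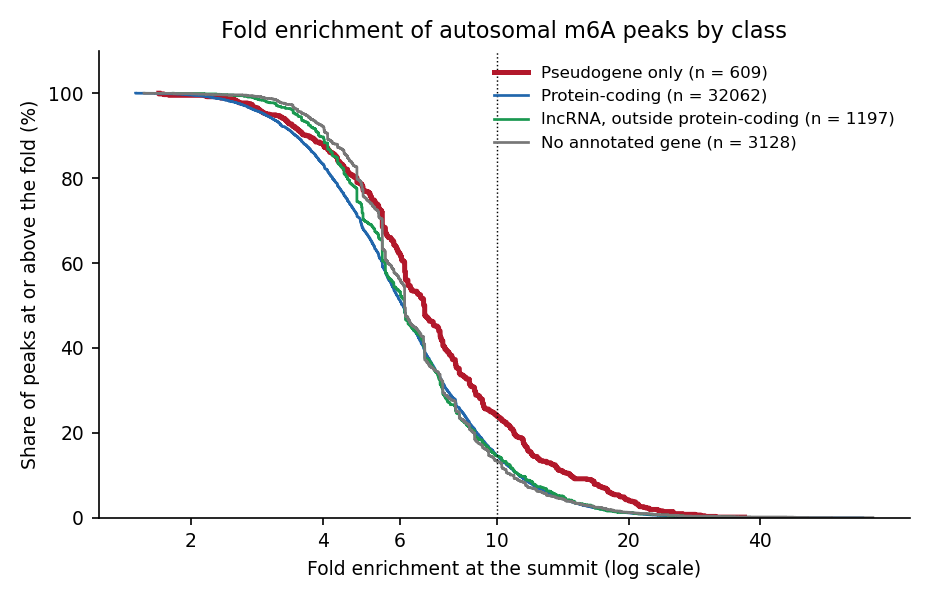
Share of autosomal peaks (vertical axis, percent) at or above each fold enrichment (horizontal axis, log scale) for 4 classes of peaks, with a dotted line at 10-fold. At this line the pseudogene curve stands at 24.0%, while the curves of protein-coding, lncRNA and gene-free peaks stand at 13.4% to 14.7%.

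Since the background is part of the divisor of the fold, peaks were also set side by side at like background. At the genome-wide minimum of the background (0.462), where no local input rose above the average, lay 98 pseudogene peaks (16.1%, 13.3 to 19.3), beside 7.19% of all autosomal peaks. Their median fold was 6.84 (6.16 to 7.53), and 6.16 in the whole list at this level, with medians of 9 and 8 antibody fragments. Above it and up to 2, the medians were 8.04 in 246 pseudogene peaks and 7.13 in the whole list. Between 2 and 5 they were 7.76 (111 peaks) and 6.60. Between 5 and 10 both were 5.57 (65 pseudogene peaks), and over 10 they were 3.93 (89 peaks) and 4.22. The median fold of pseudogene peaks was thus higher at backgrounds up to 5 and not above. At the genome-wide minimum its interval reaches the median of the whole list, and the other steps carry no interval. Peaks whose summit lay in a pseudogene and also in a protein-coding or lncRNA span, just outside the rule, numbered 329 and had a median of 6.13, with 18.8% at 10-fold or more.

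**Figure D2:**
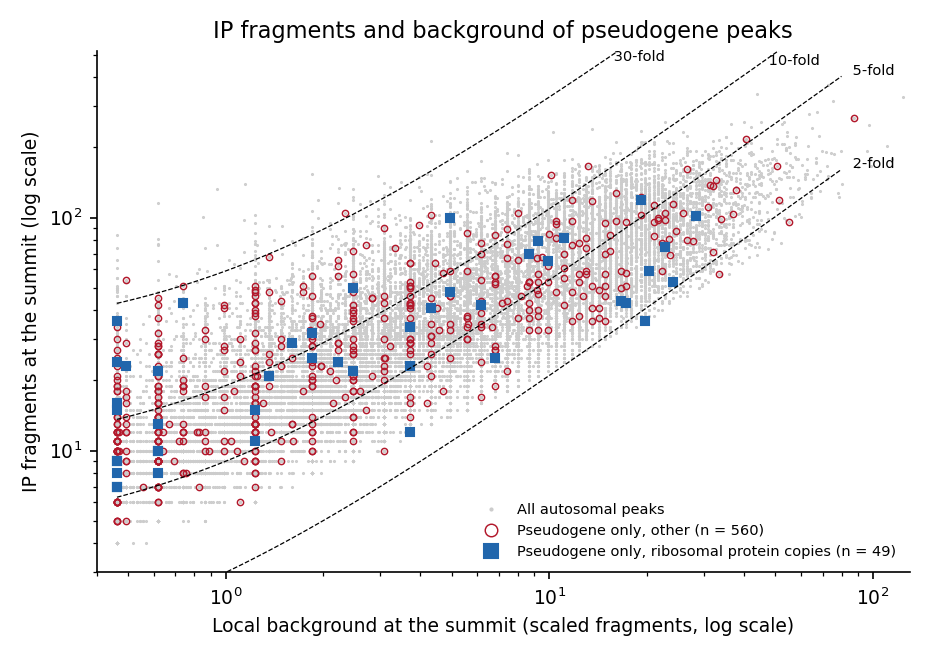
Antibody fragments at the summit (vertical axis, log scale) against the local background (horizontal axis, scaled fragments, log scale) for all autosomal peaks (grey), for pseudogene peaks of ribosomal protein copies (blue, n = 49) and for the other pseudogene peaks (red, n = 560). Dashed lines mark equal fold, and the column of points at the left edge is the genome-wide background of 0.462, which holds 98 pseudogene peaks.

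The 10 pseudogenes with the highest fold were led by Cdv3-ps, a copy of Cdv3 on chromosome 14 (chr14:43121039-43122319), with 54 antibody fragments over a background of 0.494, a fold of 36.8 (27.8 to 47.8). Gm13697 (chr2:83986409-83987693) followed with 105 fragments over 2.35, a fold of 31.7 (26.0 to 38.3). Gm25432 (chr19:5436190-5436722) had 51 fragments over 0.741, a fold of 29.9 (22.4 to 39.1). The intervals of these 3 overlap, so their order is not set by the counts. Gm8494 (chr5:146575539-146576130) reached 29.3-fold with 68 fragments, Gm5457 (chr14:12867532-12867860) 28.4-fold with 45, and Gm4540 (chr3:106034595-106035007) 26.6-fold with 42. Rpl13-ps3 (chr14:58893885-58894131) and Gm8253 (chr16:28950936-28951209) both had 36 fragments at the genome-wide background, a fold of 25.3 (17.9 to 34.8). Rpl36a-ps1 (chr14:98993934-98994234) had 43 fragments over 0.741 and a fold of 25.3 (18.4 to 33.8), and Gm20796 (chr8:20887855-20888116) had 34 fragments at the genome-wide background and a fold of 23.9 (16.8 to 33.2). Of these 10, 9 had a background under 2, and 7 have only a numbered Gm symbol that names no parent. The members that reached the list with the lowest folds were built the other way, from many fragments over a high background. Ptges3-ps (chr6:85843853-85844366), a copy of the Hsp90 co-chaperone gene Ptges3, had 57 fragments over 33.3, a fold of 1.69 (1.29 to 2.18). Gm15459 (chr5:5782903-5783611) had 96 over 55.0, a fold of 1.73 (1.41 to 2.11), and Rpl10a-ps1 (chr1:64994098-64994515) had 36 over 19.8, a fold of 1.78 (1.26 to 2.45).

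Peaks in pseudogenes were rare per gene but not per base. Of 8797 autosomal pseudogenes, 514 held a member peak, 5.84% (5.36 to 6.35), whereas 57.2% of 20554 protein-coding genes held a peak. Pseudogenes that lie wholly inside protein-coding or lncRNA spans cannot hold a member peak by the rule. Of the 6465 with bases outside such spans, 7.95% (7.30 to 8.64) held one. Their spans are short, with a median of 901 bases, and 1355 bases over the 609 peaks. Per megabase of span that belongs to pseudogenes alone there were 32.0 peaks (29.5 to 34.6), and 32.6 (32.3 to 33.0) over protein-coding spans, introns included. Spans of lncRNA genes outside them held 7.01 per megabase and sequence outside all genes 2.57 (2.48 to 2.66). Introns make up much of a protein-coding or lncRNA span and little of a processed copy, so these densities do not compare like sequence. In the shares by length, only member peaks count for pseudogenes, and every peak with its summit in the span counts for protein-coding genes. Under 500 bases, a peak so counted was held by 3.48% of all pseudogenes (2.64 to 4.48). It was held by 5.15% of those with bases outside (3.92 to 6.62) and by 14.9% of 101 protein-coding genes (8.56 to 23.3). Between 500 and 999 bases, the 3 shares were 4.99% (4.28 to 5.78), 6.97% (5.99 to 8.06) and 4.49% (3.42 to 5.78). At this length the interval of all pseudogenes overlaps that of protein-coding genes, and the interval of those with bases outside lies above it. Between 1000 and 1999 bases the shares were 7.20% (6.14 to 8.37), 9.80% (8.38 to 11.4) and 25.8% (22.9 to 28.8). For spans of 20000 bases or more they were 15.2% (10.5 to 21.0), 16.4% (11.3 to 22.6) and 70.2% (69.3 to 71.1). The share among pseudogenes was thus lowest in the shortest spans and highest in the longest, and from 1000 bases on it lay below that of protein-coding genes.

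**Figure D3:**
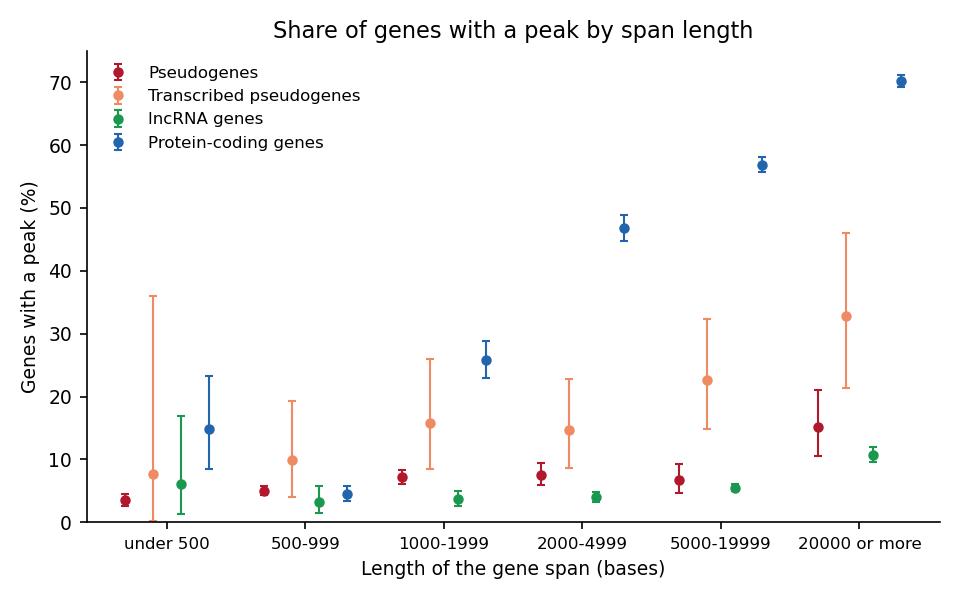
Share of autosomal genes with a peak (vertical axis, percent) by length of the gene span (horizontal axis, bases) for all pseudogenes, transcribed pseudogenes, lncRNA genes and protein-coding genes; bars are exact 95% binomial intervals. For pseudogenes and transcribed pseudogenes, only summits outside protein-coding and lncRNA spans count. For lncRNA genes, only summits outside protein-coding spans count, and for protein-coding genes every summit counts. Pseudogenes stay between 3.48% and 7.56% below 20000 bases and reach 15.2% above, while protein-coding genes go from 4.49% at 500 to 999 bases to 70.2%.

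Most pseudogenes with a member peak had 1 (441 of 514), 54 had 2, 12 had 3, and 7 had more. Gm6809 on chromosome 17 had the most, with 6 peaks from 4.03-fold to 13.4-fold. Gm5844 on chromosome 3 had 5, from 4.83-fold to 20.8-fold, in a span of only 2754 bases. Gm21092 and Gm21811 on chromosome 8 also had 5 each, and Gm14412, Gm39743 and Gm6125 had 4 each, the highest of them 22.4-fold in Gm6125. A summit inside several pseudogene spans was counted for each of them. The 3 peaks of Gm14418 are thus also among the 4 of Gm14412. Peaks in the 2 chromosome 8 pseudogenes were of another kind than the leaders: folds of 3.43 to 5.37 in Gm21092 and 3.35 to 6.56 in Gm21811, over backgrounds of 5.61 to 24.7. Their spans are almost equally long (15374 and 15384 bases), and the 5 summits of each, taken in order from the low-coordinate end, lay 470, 54, 30, 10 and 104 bases apart in position within the span. These copies were compared after their values were seen.

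A row of 7 pseudogenes on chromosome 2, also picked after the values were seen, shows the same on a finer scale. Each spans 3054 bases, and their starts are spaced exactly 5810 bases apart, from Gm13698 (chr2:83955605-83958658) to Gm13691 (chr2:83990465-83993518). Of the 7, 6 held a member peak and Gm13695 held none, with 10 peaks in all. In 5 of them a summit lay 435 to 468 bases from the high-coordinate end. At this place Gm13698 had a fold of 6.16, Gm13693 7.47, Gm13694 11.7, Gm13691 21.9 and Gm13697 31.7. The place was thus shared and the height was not, with the lowest of the 5 near the middle of all members and the highest second among them. In Gm13696 the 2 summits lay 743 and 170 bases from that end, at 5.40-fold and 6.34-fold. How fragments were shared out among the 7 spans was not tested.

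**Figure D4:**
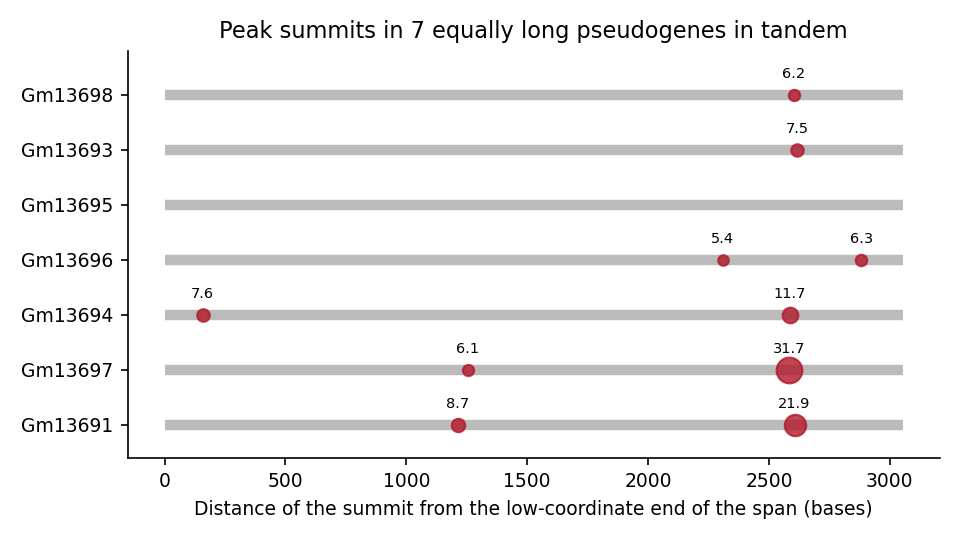
Summits of member peaks (circles, with area in proportion to the fold printed above them) along 7 equally long pseudogenes in tandem (grey bars), placed by distance in bases from the low-coordinate end of each span (horizontal axis). In 5 of the 7 a summit lies at nearly the same distance, with folds from 6.16 to 31.7, and Gm13695 has none.

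For 92 of the 514 pseudogenes (17.9%) the symbol names a parent gene clearly, as Cdv3-ps names Cdv3, and among all 8797 pseudogenes this holds for 6.81%. These 92 copies have 67 parents, of which 62 (92.5%, 83.4 to 97.5) held a peak of their own. Among the 283 parents of any autosomal pseudogene, 223 (78.8%, 73.6 to 83.4) held one, and among all autosomal protein-coding genes 57.2%. Seen from the copy, 83 of 476 pseudogenes whose parent had a peak held one too (17.4%, 14.1 to 21.2), and 9 of 123 whose parent had none (7.32%, 3.40 to 13.4). Those without a clear parent held one in 422 of 8198 cases (5.15%, 4.68 to 5.65). The share was thus highest for copies of parents with a peak, though the first 2 intervals nearly meet and copies of 1 parent are not independent. The 5 parents without a peak were Rpl21, Rps18, Rps10 and Rps27a, all of the ribosome, and the histone deacetylase gene Hdac1. Their copies reached folds up to 14.7 in Rpl21-ps10 (11.0 to 19.3, with 50 fragments over 2.47), and the 3 peak-carrying copies of Rps18 had 5.99-fold to 6.85-fold.

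In the 83 pairs with a peak on both sides, the highest fold of the pseudogene was set beside the highest fold of the parent. The pseudogene's was higher in 51 pairs. The 2 intervals lay apart with the pseudogene higher in 21 pairs and with the parent higher in 15, and they overlapped in 47. The median fold was 6.84 in the pseudogenes and 5.58 in the parents, and the median log2 ratio of pseudogene to parent was 0.27 (0.018 to 0.50). Backgrounds differed more than folds did. The median background was 2.10 in the pseudogenes and 6.79 in the parents, and it was lower in the pseudogene in 65 pairs. The pseudogene also had fewer antibody fragments in 61 pairs, with medians of 25 and 59. A parent had a median of 2 peaks, from which the highest was taken. The peaks of copy and parent were not matched by position, so a pair can compare different sites. Across the 83 pairs the fold of the copy hardly followed that of the parent (Spearman's rho 0.084 and Pearson's r of the log2 folds 0.14), as a description of pairs that share parents, libraries and possibly fragments.

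Pairs with ribosomal protein parents are given apart from the others. In 40 ribosomal pairs the median log2 ratio was 0.81 (0.17 to 1.14), with median folds of 7.26 in the copies and 4.94 in the parents and median backgrounds of 1.73 and 17.6. In the other 43 pairs the median log2 ratio was 0.061 (−0.59 to 0.29), with median folds of 6.13 and 7.37. The intervals of the 2 median log2 ratios overlap, and the difference was not tested. The median background was 17.6 in the ribosomal parents and 5.93 in the other parents, and the background enters the fold as part of its divisor. What part the background has in the ratio was not tested.

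The copies with a clear parent and the highest fold are given beside their parents. Since they were picked for a high fold, that they exceed the parent is largely fixed by the choice. Cdv3-ps stood at 36.8-fold beside 10.6-fold (8.17 to 13.5) in Cdv3 (chr9:103365102-103365663). Rpl13-ps3 stood at 25.3-fold with 36 fragments, beside 4.77-fold (3.87 to 5.81) in Rpl13 with 95 fragments over 19.1. Rpl36a-ps1 stood at 25.3-fold beside 9.99-fold in Rpl36a on the X chromosome. The parents thus had more fragments in every one of these 3 pairs and a higher background in each. Ybx1-ps2, a copy of the gene of an RNA-binding cold-shock protein, had 19.7-fold (14.4 to 26.4) beside 14.9-fold (11.6 to 18.8), and these intervals overlap. Selenok-ps5, a copy of a selenoprotein gene of the endoplasmic reticulum, had 17.8-fold beside 5.35-fold. Rpl17-ps4 and Rpl17-ps5 had 17.1-fold and 17.0-fold beside 2.64-fold in Rpl17, where 93 fragments stood over a background of 34.6. The 2 copies came to the same fold by different counts, 24 fragments at the genome-wide background in Rpl17-ps4 and 100 over 4.94 in Rpl17-ps5. Hmgb1-ps1, a copy of a chromatin protein gene, had 16.7-fold (12.7 to 21.6) beside 6.51-fold (5.39 to 7.78).

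**Figure D5:**
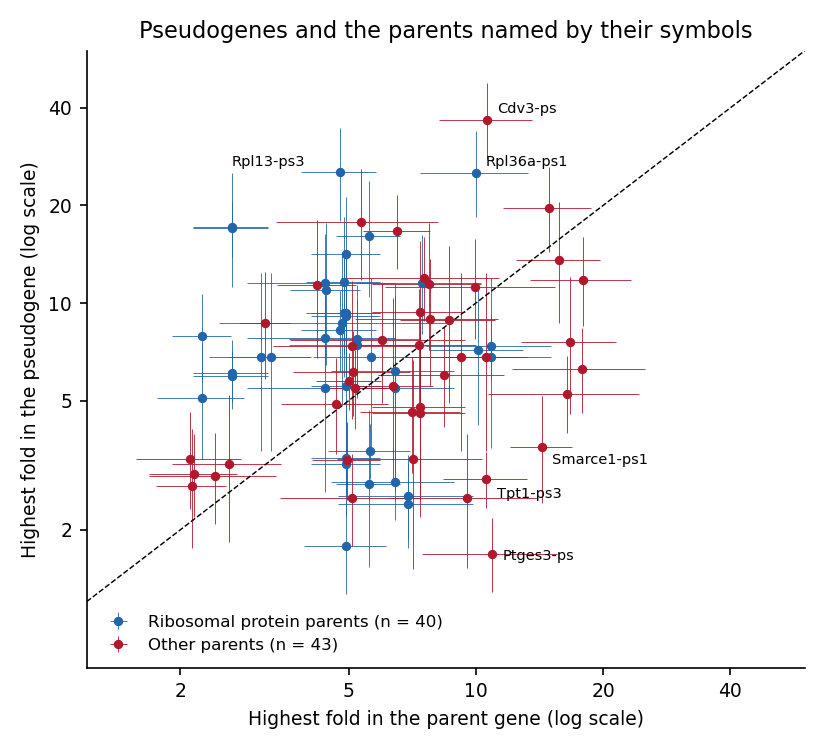
Highest fold in the pseudogene (vertical axis, log scale) against the highest fold in the parent gene that its symbol names (horizontal axis, log scale) for 40 pairs with ribosomal protein parents (blue) and 43 others (red); lines are exact 95% Poisson intervals with the background held fixed, and the dashed line marks equal folds. Of the 83 pairs, 51 lie above the line, with Cdv3-ps highest, and the points show little common trend. Peaks of a pair were not matched by position.

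Pairs in which the parent was higher were looked up after the values were seen. Their peaks were not matched by position either. Ptges3-ps had 1.69-fold beside 10.9-fold (7.45 to 15.6) in Ptges3, where 29 fragments stood over a background of only 1.74. Tpt1-ps3, a copy of the gene of the translationally controlled tumour protein, had 2.86-fold (2.33 to 3.48) beside 10.6-fold (8.37 to 13.2). Smarce1-ps1, a copy of a gene of the BAF chromatin remodelling complex, had 3.59-fold (2.41 to 5.17) beside 14.3-fold (12.0 to 16.9). In the first 2 of these the copy had the higher background, 33.3 for Ptges3-ps and 34.0 for Tpt1-ps3, the reverse of the usual order. In Smarce1-ps1 the background of 6.79 was lower than the parent's 8.65, and its fragments were fewer, 27 beside 137.

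Groups were formed by the first letters of symbols ending in -ps or -rs, so each holds only part of the genes of its kind. Copies of cytosolic ribosomal protein genes (Rpl and Rps symbols) gave more member peaks than any other named group. Of 274 such pseudogenes, 48 (17.5%, 13.2 to 22.5) had a member peak. The share was 7.79% (6.45 to 9.30) in all 1425 with a -ps or -rs symbol, and 5.84% in all pseudogenes. Copies of any clear parent with a peak, ribosomal ones among them, held one in 17.4% of 476 cases (14.1 to 21.2). Whether ribosomal copies differ from other copies of such parents was not tested. The 49 peaks of the ribosomal copies had a median fold of 6.84, the same as all members. They ranged from Rpl10a-ps1 at 1.78 to Rpl13-ps3 and Rpl36a-ps1 at 25.3. Copies of 1 gene went different ways. Rpsa, which encodes a small-subunit protein also known as the laminin receptor, had peaks in 6 of 12 copies, from 3.19-fold in Rpsa-ps10 (75 fragments over 22.9) to 14.2-fold in Rpsa-ps12 (22 over 0.618). Rpl17 had peaks in 4 of 9 copies and Rpl18 in 2 of 2, but Rpl31 in only 3 of 23, Rps2 in 0 of 11 and Rpl36 in 0 of 9.

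The other groups were small. Of 17 copies with Hsp, Dnaj, Cct or Ppia symbols, of chaperones and cyclophilins, 3 had a peak, led by Dnajb6-ps at 11.2-fold (7.73 to 15.8) and Hsp25-ps1 at 9.89-fold (7.74 to 12.5), both copies of chaperone genes. Of 13 translation factor copies 2 had one, Eef2-ps2 at 8.69-fold (5.83 to 12.5), a copy of the elongation factor 2 gene, and Eif3s6-ps1, of an initiation factor gene, at 5.47-fold (2.61 to 10.6). Of 12 cytoskeleton copies 2 had one, Tpm3-rs7 of a tropomyosin gene at 8.16-fold and Actg-ps1 of a gamma actin gene at 6.34-fold. These groups are too small to be set against the 5.84% of all pseudogenes. Cox5b-ps, of a respiratory complex IV gene, had 12.0-fold, as 1 of 17 copies with symbols of respiratory chain genes. Hmgb1-ps1 had 16.7-fold, as 1 of 17 with symbols of Hmg, histone and related genes. Pgam1-ps2, of a glycolytic mutase gene, had 4.62-fold, as 1 of 20 with symbols of glycolysis genes. Of 4 copies with Hnrnp, Srsf, Snrp or Sf3 symbols, of splicing genes, 0 had one. Other members belong to the same processes by what their names say but fall outside these symbols, and those given next were chosen after their values were seen. Gpi-ps, named for a glycolytic isomerase, had 16.4-fold (10.7 to 24.3), and Cox6c2, named for a complex IV subunit, had 10.3-fold (5.92 to 16.8). The copies of the chromatin genes Cbx3, Smarce1 and Hdac1, of the RNA-binding gene Ybx1 and of the co-chaperone gene Ptges3 likewise stand outside the group counts. Of 551 copies of smell and pheromone receptor genes, which act in sensory neurons, 5 had one (0.907%, 0.295 to 2.10), led by Vmn2r-ps15 at 13.6-fold and Vmn2r-ps16 at 8.65-fold. This share is below the 5.84% of all pseudogenes, and its interval does not reach it.

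Within the pseudogenes, the summit lay a median of 295 bases from the nearer end of the span, and within 250 bases of an end in 276 of 609 (45.3%). The median span was 1355 bases, and in spans under 500 bases every summit lies that near to an end. No even placement was set beside these values, so they do not show that summits gather at ends. The peak lay wholly inside the span in 480 of 609 (78.8%, 75.4 to 82.0), so most peaks ended where the copy still went on. In the 410 peaks of spans under 2000 bases, summits fell in the 5 equal parts of the span, from the low-coordinate end, 62, 105, 81, 102 and 60 times. The outer parts thus held the fewest. The tables used give no strand for a pseudogene, so the 5′ and 3′ ends of the copies cannot be told apart. The 3 peak-carrying copies of Cbx3, which encodes a heterochromatin protein, were alike in the distance of the summit from an end. Summits of Cbx3-ps6, Cbx3-ps7 and Cbx3-ps8, of 4.58-fold, 9.37-fold and 4.79-fold, lay 90 to 101 bases from an end of spans of 1725 to 1729 bases. For Cbx3-ps6 this was the high-coordinate end, and for Cbx3-ps7 and Cbx3-ps8 the low one. Without strands, whether these are the same end of the copy is not known. The parent Cbx3 had 1 peak, of 7.37-fold (5.67 to 9.44), and the interval of each copy overlaps this one. These copies were singled out after their values were seen.

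Distance was measured to protein-coding spans alone. The median distance from the summit to the nearest protein-coding span was 28808 bases, 90 summits (14.8%, 12.1 to 17.8) lay within 5000 bases, 11 within 1000, and 234 (38.4%) beyond 50000. The median fold was 6.41 in the 90 near peaks and 6.84 in the 234 beyond 50000 bases, and the median backgrounds were 1.24 and 1.61. Neither the fold nor the background was thus higher near a protein-coding gene. Chromosome 14, chosen after its value was seen, stood out among the autosomes: its 20 member peaks had a median fold of 13.5, where the next highest was 8.13 on chromosome 19, and 4 of the 10 leading pseudogenes lie there, with Cdv3-ps, Gm5457, Rpl13-ps3 and Rpl36a-ps1. Its share of pseudogenes with a peak, 3.94% of 482 (2.39 to 6.09), was not high.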

How the data were processed

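The deposited peak list compares 1 m6A library with 1 input library of mouse uterus. Per the submitters' processing notes, HISAT2 2.2.1 and MACS3 3.0.0a7 were used with mm10. Neither tool settings nor the handling of duplicate and multiply mapped reads is stated; they are not given in sources used here. The deposited fold enrichment is a ratio at the summit, and the deposited −log10 p and −log10 q values are those of the authors' peak caller (lowest −log10 q 1.32). The deposited display score was not used.

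From fold and p, the whole number of antibody fragments and the background at each summit were recovered, with the −log10 p met within 0.001 at 100% of peaks (28 peaks, 2 of them members, had several solutions). No source used here gives library totals. The caller adds 1 to fragments and to background, which lowers the fold most where few fragments lie. Repeated PCR molecules are not independent, and the intervals of folds cover counting error of fragments only. Those of shares, medians and densities take peaks, genes or pairs as independent and leave out differences between libraries. Shares carry exact Clopper-Pearson intervals, folds exact Poisson intervals with the background held fixed, and medians binomial order-statistic intervals, all at 95%.

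Spans and types of 49628 genes came from a RefSeq gene table (GRCm38.p6, the same assembly as mm10) after leaving out 369 rows off the assembled chromosomes. It gives no exons or pseudogene strands. A parent was taken from the symbol before -ps, where a protein-coding gene has that name. No test was made, as each group has 1 library. The recovery and the overlap step were tested on simulated data. Members, gene groups and comparisons were chosen with earlier results of these data known. Named were the 10 pseudogenes with the highest fold at −log10 q of at least 5, those with the most peaks (7, by ties), the 10 with a clear parent and the highest fold, the 2 highest in each parent group and the 3 lowest members, and others are said to be chosen after their values were seen. A few pseudogenes selected this way are not reported here. Alternatives covered the q and fold minimum, the overlap rule, merging, ambiguous summits, chromosomes, parent names and the measure per gene. Values were computed with scipy 1.17.1, pandas 2.3.3 and numpy 2.4.6 in Python 3.11.15 and drawn with matplotlib 3.10.9.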

Additional observations from a re-analysis of the deposited data

How the results depend on the processing

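The alternatives left the number of member peaks between 536 (fold of at least 4) and 731 (transcribed pseudogenes counted as well, an alternative chosen after seeing the data). With summits on X and Y it was 650, and with any overlap of peak and span 628. The median fold of 6.84 went to 7.36 with a −log10 q of at least 5, to 7.39 with a fold of at least 4 and to 7.49 with at least 10 antibody fragments, each of which removes peaks of low fold or low count. Parents with a peak went from 92.5% to 79.2% with a fold of at least 4, which also removes peaks of parents with a high background, and was 86.7% with a −log10 q of at least 5. The median log2 ratio of pseudogene to parent was 0.50 with the median fold per gene and 0.27 with 1 pair for each parent. For the latter the copy with the highest fold was kept, a choice that favours the pseudogene. The ratio was 0.061 without ribosomal protein parents. The last 2 were chosen after seeing the data. Of the alternative values, 37 lay inside the 95% interval of the reported value or, for counts, within 1.5 times of it, and 4 did not. The ratio of 0.50 counts as inside but lies at the upper limit of its interval. Some alternatives, such as the merging of same intervals, left every value as reported. A direction was defined only for the ratio of pseudogene to parent, and it did not turn. No paired analysis was possible because each group has 1 library and no test was made. Peaks at the genome-wide background rest on a median of 9 antibody fragments, so their folds have wide intervals.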

Other observations

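Pseudogenes on the sex chromosomes were outside the rule. Under it, 36 peaks on X had a median fold of 7.53, from 2.49 to 26.0, and 5 peaks on Y had a median of 5.65, from 4.90 to 8.09. Of the 609 autosomal member peaks, 9 had their summit in 2 or more pseudogene spans and 12 also in a gene of another type.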
